A study of Mus musculus with 2 samples.

Results

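The 36 genes described here encode the mouse receptors for monoamines and acetylcholine: 12 for serotonin, 5 for dopamine, 7 for noradrenaline, 5 muscarinic and 7 nicotinic acetylcholine receptors or receptor subunits. They were taken by symbol from GENCODE M21 (mm10) and are 36 of 21799 protein-coding genes whose symbol is unique in that annotation. DNase-seq, in which the enzyme DNase I cuts accessible DNA, was done on 2 libraries of mouse hippocampus, labelled as replicates 1 and 2 of 1 group. Both are labelled as layer of hippocampus from 14-day-old B6CASTF1/J females, the F1 hybrid of C57BL/6J and CAST/EiJ, with no treatment or altered gene named. Each label names 3 females, and the libraries carry the same donor identifier and different biosample identifiers. The labels do not say whether animals were pooled, and differences between the libraries may therefore be technical. A single group allows no test of a condition, and none was made between classes of receptor. Each value is given for replicate 1 first and replicate 2 second.

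Serotonin, dopamine and noradrenaline reach the hippocampus in axons of brainstem neurons, and acetylcholine mainly in axons of the septum. All of their receptors are G protein-coupled, except the nicotinic receptors and the serotonin receptor that holds Htr3a, which are ligand-gated ion channels. Several act on excitability and plasticity of pyramidal cells and interneurons in this tissue. Many neuronal genes carry an RE1 element, the site bound by the repressor REST, which holds neuronal genes down in other cell types. Accessibility was measured in bulk tissue, so fewer cells with an open site and a less open site in every cell cannot be told apart.

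The authors called peaks in each library on its own. The longer of the 2 deposited lists was used, with 115699 peaks (replicate 1) and 167829 peaks (replicate 2). The scale of the authors' signal value is not stated, so signal was compared between genes as a percentile: 0 is the weakest and 100 the strongest of the promoter peaks (or of the distal peaks) of the same library. A promoter peak lay within 500 bp of a start of a protein-coding transcript of the gene. A distal peak lay over 1 kb from every annotated start and within the gene or 20 kb on either side. Promoter peaks were found in both libraries for 8 of 8 genes of hippocampal excitatory neurons, 6 of 6 of astrocytes, 4 of 6 of the oligodendrocyte lineage, 4 of 6 of microglia and 1 of 6 of vessels. Over all protein-coding genes this share was 61.9%, near the 66.7% of the oligodendrocyte and microglia genes, which these counts do not set apart. The median ratio of observed to expected CpG dinucleotides at the starts was 0.74 for the excitatory neuron genes and 0.61 over all genes. Of 8 interneuron genes 7 had one in replicate 1 and 2 in replicate 2. Of 10 genes of monoamine and cholinergic cell bodies, which lie outside the hippocampus, 3 had one in both libraries. Dbh (percentiles 59.5 and 63.8 of promoter peaks) and Tph2 (49.3 and 49) ranked as high as the upper receptor genes, Slc5a7 was weak (6.28 and 0.254), and Th, Fev and Chat had none in either. This list therefore did not as a whole lack promoter peaks, and the part of other cell types in these values was not tested.

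Exact matches to the RE1 core were found at receptor genes of each transmitter except noradrenaline. The core spans 17 bases, of which 15 are fixed. It was searched on both strands in the whole genome, a scope chosen after the receptor peaks had been searched. It occurred 195 times, and 36 matches (18.5%) lay in a peak of both libraries. Of the 36 receptor genes, 5 (13.9%) held a match in the gene or 20 kb on either side, beside 0.917% of all protein-coding genes (200 of 21799). In 4 receptor genes (11.1%) the match lay in a peak of both libraries, beside 0.183% of all protein-coding genes. With the shorter and stricter peak lists it was 2 genes, Htr1a and Chrnb2 (5.56%), beside 0.128%. The motif was picked with its role at neuronal genes known, so these counts describe where it lies and are no independent evidence about the list. The 5 sites are shown because they place one element at receptors of 4 classes. They are written 5′ to 3′ on the strand of the motif, from the mm10 reference, with the fixed letters of the core in capitals and its 2 free positions in lower case.
Htr1a, chr13:105442789-105442805, minus strand: TTCAGCACCcgGGACAG
Drd2, chr9:49341200-49341216, minus strand: TTCAGCACCaaGGACAG
Chrm4, chr2:91921337-91921353, minus strand: TTCAGCACCtcGGACAG
Chrnb2, chr3:89764458-89764474, minus strand: TTCAGCACCacGGACAG
Chrna2, chr14:66161539-66161555, plus strand: TTCAGCACCtaGGACAG

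The site of Htr1a, the inhibitory serotonin receptor of pyramidal cells and of serotonin neurons themselves, lay 834 bp upstream of the start, outside the gene. Its peak (chr13:105442701-105442860 in both libraries) had signal 1.46 and 1.14, at percentiles 70.3 and 82.2 of all peaks. The site of Drd2, the dopamine receptor that inhibits adenylyl cyclase, lay 573 bp downstream of the start, in the gene and outside annotated exons. Its peak was weak, with signal 0.395 and 0.219 (percentiles 18 and 9.87 of all peaks).

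The site of Chrm4, an inhibitory muscarinic receptor, lay 5896 bp upstream of the GENCODE start in a peak of signal 1.25 and 0.542 (percentiles 65.9 and 56.1). The site of Chrnb2, the beta subunit of most high-affinity nicotinic receptors in brain, lay 134 bp downstream of the start, in an annotated UTR. It was the only 1 of the 5 inside a promoter peak, with signal 1.96 and 0.986. A footprint, a short stretch protected from DNase I as called by the authors, overlapped the Chrnb2 site in both libraries. At Htr1a and Drd2 a footprint overlapped the site in replicate 2 only, and at Chrm4 in replicate 1 only. The site near Chrna2, a nicotinic alpha subunit, was in no peak and no footprint of either library. It lay closer to an annotated start of Ptk2b than to that of Chrna2. The peaks with the core at Htr1a, Drd2 and Chrm4 lay within 1 kb of an annotated start but over 500 bp from a start of the gene itself, so they counted neither as promoter nor as distal peaks.

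Within the promoter peaks alone, 1 of 56 receptor promoter peaks in replicate 1 and 1 of 42 in replicate 2 held the exact core, both at Chrnb2, beside 12 of 22856 and 9 of 23391 of all promoter peaks. With up to 2 of the fixed letters differing, the promoter peak of Drd3, a dopamine receptor with high affinity for its ligand, also held a site. It is shown with the letters that match the core in capitals; 1 fixed letter differed, and no footprint overlapped it.
Drd3, chr16:43753925-43753941, plus strand: cTCAGCACCaaGGACAG

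The strongest distal peak of each class found in both libraries is shown next, ranked by the smaller of its 2 percentiles among distal peaks. Sequences are from the plus strand of mm10, and capitals mark the bases that lie inside a footprint of both libraries.
Drd5, chr5:38307861-38308040: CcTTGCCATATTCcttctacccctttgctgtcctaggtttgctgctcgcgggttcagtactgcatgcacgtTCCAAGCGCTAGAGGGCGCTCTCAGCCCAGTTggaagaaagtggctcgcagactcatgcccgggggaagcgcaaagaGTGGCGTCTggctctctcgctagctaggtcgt
Chrna4, chr2:181060281-181060460: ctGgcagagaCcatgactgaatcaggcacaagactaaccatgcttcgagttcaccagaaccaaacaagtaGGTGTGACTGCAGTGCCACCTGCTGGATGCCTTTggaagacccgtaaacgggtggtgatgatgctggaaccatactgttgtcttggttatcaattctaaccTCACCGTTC
Htr1d, chr4:136454861-136455020: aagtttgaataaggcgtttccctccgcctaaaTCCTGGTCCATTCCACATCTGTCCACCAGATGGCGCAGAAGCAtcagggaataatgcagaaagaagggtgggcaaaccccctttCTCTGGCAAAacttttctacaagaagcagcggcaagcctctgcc
Chrm4, chr2:91924141-91924300: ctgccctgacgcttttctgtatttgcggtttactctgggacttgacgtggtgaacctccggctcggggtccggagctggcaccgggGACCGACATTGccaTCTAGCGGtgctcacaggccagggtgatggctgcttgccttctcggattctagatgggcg
Adra1b, chr11:43783881-43784020: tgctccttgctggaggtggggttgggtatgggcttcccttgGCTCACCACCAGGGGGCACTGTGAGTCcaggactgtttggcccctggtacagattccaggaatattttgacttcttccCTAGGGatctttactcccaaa

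The peak near Drd5, an excitatory dopamine receptor, had signal 8.33 and 3.63, at percentiles 99.4 and 99.6 of all distal peaks. It lay in intergenic sequence 11327 bp from the start, and Drd5 was the nearest protein-coding gene. The Chrna4 peak was intergenic too, 16735 and 16715 bp from a start, with signal 5.34 and 2.42 (percentiles 97.9 and 98.2). The Htr1d peak had signal 3.95 and 1.77 (percentiles 95.9 and 95.2), but the nearest protein-coding gene was 6030445D17Rik. The Chrm4 peak lay 2949 and 2929 bp upstream of the GENCODE start, outside that gene model but downstream of the RefSeq start described below, with signal 3.27 and 1.49 (percentiles 94.2 and 92.8). The Adra1b peak lay in an intron of that gene, though the nearest protein-coding start was that of Ttc1, and had signal 3.39 and 1.23 (percentiles 94.6 and 89.3).

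After these 5 sequences had been read, a short core of the site of the insulator protein CTCF, AGNNGGCNC, was searched on both strands in windows of 300 bp at peak centres. All 5 of these peaks held a match in both libraries, and in 4 of them, all but that of Chrm4, the match overlapped a footprint in each library. Over all distal peaks of the receptor genes the share was 25.4% (31 of 122) and 21.8% (42 of 193), near the 27.2% and 20.4% of all distal peaks. Among the receptor peaks from percentile 90 it was 10 of 16 (62.5%) and 8 of 20 (40%), and among all distal peaks from that percentile 42.5% and 33.3%. The 16 and 20 include the peaks that prompted the search, all 5 in replicate 1 and all but that of Adra1b in replicate 2. These counts therefore cannot show whether strong receptor peaks hold the core more often than other strong distal peaks. The core is a short pattern that strong distal peaks held more often in general, and the receptor counts were small.

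A promoter peak was present at 30 of the 36 receptor genes in replicate 1 and at 28 in replicate 2, beside 66% and 63.5% of all protein-coding genes. It was present in both libraries at 27 (75%), beside 61.9% of all genes. The 27 were 10 of 12 serotonin, 3 of 5 dopamine, 7 of 7 noradrenaline, 3 of 5 muscarinic and 4 of 7 nicotinic genes. The receptor promoter peaks were weak. Their median percentile was 29.7 and 37.8, beside 69.5 and 71.4 for the strongest promoter peak of all genes that had one. The median signal was 1.3 and 0.704, beside 5.64 and 2.54. By class the median percentile was 27.5 and 27.6 for serotonin, 14.5 and 9.44 for dopamine, 51.4 and 58.7 for noradrenaline, 32.1 and 49.5 for muscarinic and 31.6 and 36.2 for nicotinic genes. No receptor gene reached the median of all genes in either library, and Chrna7 in replicate 1 (69.4) came closest. With the shorter peak lists, 18 of the 36 (50%) had a promoter peak in both libraries, beside 57.4% of all genes, so the share lay above that of all genes with the longer lists and below it with the shorter ones. With a window of 250 bp it was 23 (63.9%), beside 60.1%. The noradrenaline genes numbered 5 with the shorter lists and 4 with 250 bp, and the dopamine genes numbered 1 with the shorter lists.

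**Figure D1:**
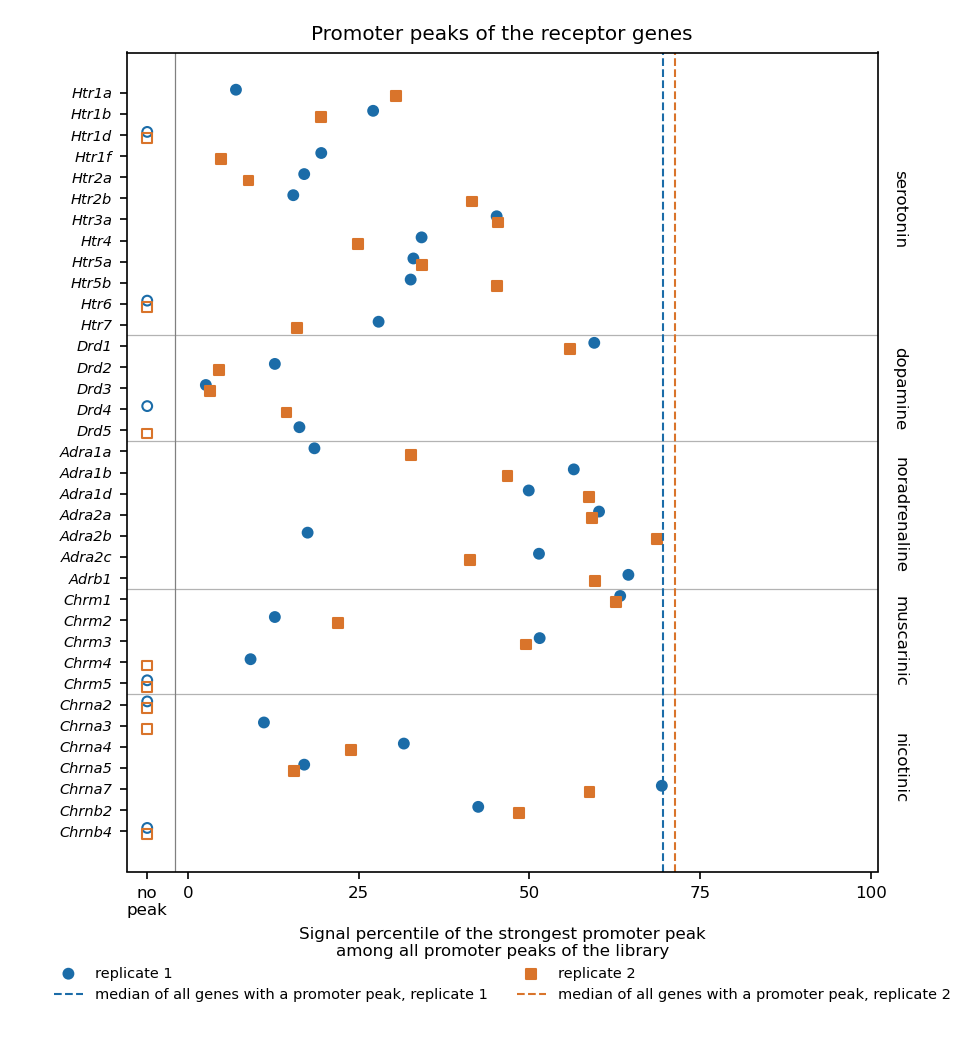
Signal percentile of the strongest promoter peak of each of the 36 receptor genes among all promoter peaks of its library (x axis), in replicate 1 (circles) and replicate 2 (squares), with open symbols at the left for no peak and dashed lines at the medians of all genes with a promoter peak (69.5 and 71.4). All receptor genes lie left of the line of their library, and with the 500 bp window plotted the 7 noradrenaline genes all have a peak in both.

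Promoters rich in CpG dinucleotides are known to be accessible in most tissues, so genes were split into tertiles by the ratio of observed to expected CpG at their starts, with bounds 0.37 and 0.75. In the lowest tertile 5 of 8 receptor genes had such a peak in both libraries (62.5%), beside 10.8% of all genes. In the middle tertile 14 of 18 had one (77.8%), beside 78.9%, and in the highest tertile 8 of 10 (80%), beside 96.1%. The median percentiles of the receptor peaks were 30.3 and 41.6 in the lowest tertile, where all genes had 19.7 and 29.5. They were 31.6 and 30.4 in the middle tertile (61.6 and 66.7 for all genes) and 27.9 and 54.1 in the highest (79.8 and 78.7 for all genes). The receptors thus stood above all genes of low CpG content and below those of middle and high CpG content in signal. With the shorter lists the counts were 3 of 8 (37.5%), 9 of 18 (50%) and 6 of 10 (60%) from the lowest to the highest tertile, beside 6.76%, 72.3% and 93.1% of all genes. The 5 of low CpG content with a peak in both libraries were Htr2b, Htr3a, Drd3, Adra2c and Chrm1, of which the shorter lists held Htr2b, Htr3a and Chrm1. The 2 of high CpG content without one in both were Htr6 and Drd5.

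**Figure D2:**
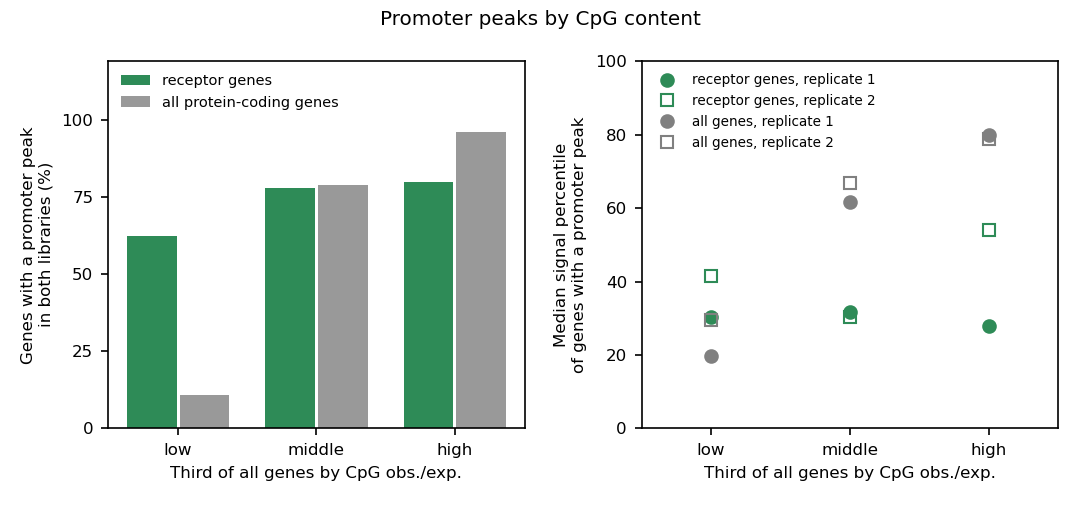
Left, percentage with a peak at the promoter in both libraries for the receptor genes (green bars; 8, 18 and 10 genes) and all protein-coding genes (grey bars) by tertile of the observed to expected CpG ratio; right, median signal percentile of the genes with a promoter peak in each library. Of the 3 tertiles, the receptor share exceeds that of all genes in the lowest (62.5% beside 10.8%), with the longer peak lists plotted.

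Genes were ranked within a class by the smaller of their 2 promoter percentiles, and by the mean of their 2 counts of distal peaks. Among the serotonin receptor genes, Htr3a, Htr5a and Htr5b ranked highest by that promoter rule, although Htr4 (34.2) was above Htr5a and Htr5b in replicate 1 and Htr2b (41.6) above Htr5a in replicate 2. Htr3a (chr9:48899213-48911099), a subunit of the serotonin-gated ion channel that marks a group of interneurons, had promoter signal 2.14 and 0.883, at percentiles 45.2 and 45.4. Htr5a (chr5:27842149-27855088), an inhibitory receptor, had 1.44 and 0.635 (percentiles 33 and 34.3). Htr5b, a rodent receptor of the same subfamily, had 1.42 and 0.877 (percentiles 32.6 and 45.2). These 3 stood in the lower part of the promoter peaks of both libraries. The other 7 with a peak in both libraries, Htr1a, Htr1b, Htr1f, Htr2a, Htr2b, Htr4 and Htr7, had a smaller percentile between 4.79 and 24.9. Htr1d, an inhibitory receptor related to Htr1b, and Htr6, a receptor that stimulates adenylyl cyclase, had no promoter peak in either library. Measured from RefSeq starts, Htr1d had a weak one in replicate 1 only (signal 0.555, percentile 8.41).

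Htr1a had a promoter peak in each library, but not the same one. In replicate 1 the peak at the start had signal 0.509, and a peak of signal 1.44 lay 542 bp away, just outside the window. In replicate 2 that second site had signal 0.577 and lay 442 bp away, just inside it. By mean count, distal peaks were most numerous at Htr4 (4 and 14), a receptor that stimulates adenylyl cyclase, and Htr1f (3 and 11), an inhibitory receptor. These places rest on replicate 2, since in replicate 1 Htr5b (6 and 7), Htr1a (5 and 4) and Htr6 (5 and 7) had more than either. Both genes are long, and per 100 kb they had 1.88 and 6.59 (Htr4) and 1.36 and 4.97 (Htr1f), beside medians of 3 and 4.95 over the 12 genes. At Htr6, which had no promoter peak, the strongest distal peak had signal 2.8 and 3.07. It (chr4:139086201-139086360, percentiles 92.5 and 99.2) lay in an intron of the neighbouring gene Nbl1.

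Htr2a, the excitatory receptor at which classical psychedelic drugs act, was chosen for mention after its values were seen. Its promoter signal was 0.821 and 0.323 (percentiles 17 and 8.84), whereas a peak in its intron 2621 bp from the start had 5.42 and 1.42 (percentiles 97.9 and 92.1 of distal peaks). Htr1b, an inhibitory receptor of axon terminals chosen in the same way, had promoter signal 1.19 and 0.444 and an intergenic peak 5415 bp from the start with 4.69 and 1.45 (percentiles 97.1 and 92.4). In both genes the distal peak was the stronger in both libraries.

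Of the dopamine receptor genes, Drd1 (chr13:54051183-54055705), the main excitatory dopamine receptor, had the strongest promoter peak. Its signal was 3.8 and 1.34, at percentiles 59.5 and 55.9. Drd2 (chr9:49340627-49408177) had 0.684 and 0.265 (percentiles 12.7 and 4.47), and Drd3 (chr16:43754026-43822932) had 0.357 and 0.242 (percentiles 2.59 and 3.17). Measured from its RefSeq start, Drd3 had no promoter peak in either library. Drd4, an inhibitory receptor, had a promoter peak in replicate 2 only, with signal 0.387. Drd5 had one in replicate 1 only, with signal 0.798. Both of these single peaks were weak, at percentiles 14.4 and 16.3, and the CpG ratio of their starts was 0.59 and 0.75. Distal peaks were most numerous at Drd3 (3 and 5) and Drd2 (2 and 4), the longest genes of the class. Per 100 kb they had 2.75 and 4.59 (Drd3) and 1.86 and 3.72 (Drd2). Drd5 had 4.63 and 6.95, Drd4 2.25 and 9, and Drd1 0 and 4.49. The 2 strong intronic peaks of Drd3, at chr16:43814741-43815020 and chr16:43802101-43802280, had signal 2.38 and 1.64, and 3.52 and 1.18, above its promoter peak in both libraries.

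The noradrenaline receptor genes had the highest median promoter percentiles of the 5 classes. They were the only class in which all members had a promoter peak in both libraries. That count rested on the 500 bp window: with 250 bp, 4 of the 7 had one in both, beside 9 of 12 serotonin genes. The ranked peaks of Adra1d (438 bp from the start in both libraries) and Adra2c (462 and 489 bp) lay near the edge of the window. Adrb1 (chr19:56722199-56733113), which stimulates adenylyl cyclase and is a main beta-type receptor of the forebrain, had signal 4.65 and 1.56, at percentiles 64.5 and 59.6. Adra2a (chr19:54044151-54048982), an inhibitory receptor that is also the autoreceptor of noradrenaline neurons, had 3.9 and 1.54 (percentiles 60.2 and 59.2). Adra1d (chr2:131545850-131562283), an alpha-type receptor coupled to phospholipase C, had 2.55 and 1.51 (percentiles 49.9 and 58.7). The libraries gave these 3 genes similar ranks. Of the other 4, Adra1b had percentiles 56.5 and 46.8, Adra2c 51.4 and 41.3, and Adra1a 18.5 and 32.6.

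Adra2b, an inhibitory receptor, differed most between the libraries, with 0.836 in replicate 1 and 2.28 in replicate 2 (percentiles 17.5 and 68.7). The peak of replicate 2 was present in replicate 1 with signal 4.74, but 508 bp from the start and so outside the window, where replicate 2 had it at 488 bp. Measured from the RefSeq start, 29 bp away, that peak counted in both libraries, at percentiles 65 and 68.7. By mean count, distal peaks were most numerous at Adra2c (11 and 8), an inhibitory receptor, and at Adra1a and Adra1b (7 and 11 each), both coupled to phospholipase C. Adra1d, with 9 and 5, was above the latter pair in replicate 1. Adra2c is short and had 25.3 and 18.4 distal peaks per 100 kb, the highest density of the 36 genes in both libraries. The long genes Adra1a and Adra1b had 3.98 and 6.25, and 4.2 and 6.6, per 100 kb. Adra2a had 4 distal peaks in replicate 1 and 0 in replicate 2, and the 4 lay in its own exon.

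Chrm1 (chr19:8663789-8683587), the main excitatory muscarinic receptor of hippocampal pyramidal cells, had promoter signal 4.44 and 1.79, at percentiles 63.3 and 62.7. It was the highest receptor gene by the smaller percentile, although its start had a CpG ratio of only 0.21. Chrm3 (chr13:9875486-10360847), another excitatory muscarinic receptor, had 2.73 and 1.03 (percentiles 51.5 and 49.5). Chrm2, an inhibitory receptor, had 0.684 and 0.473 (percentiles 12.7 and 22). Chrm5, an excitatory receptor best known from dopamine neurons, had no promoter peak in either library. Chrm3 had 15 and 32 distal peaks, the most of all 36 genes. It is the longest of the muscarinic genes, and per 100 kb it had 2.86 and 6.09, beside medians of 2.5 and 4.38 over all protein-coding genes. Chrm3 was itself the middle gene of its class by this density.

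Chrm4 (chr2:91927249-91928688) had a promoter peak in replicate 1 only, with signal 0.577 (percentile 9.14). A stronger peak lay inside the gene in both libraries, 692 and 672 bp downstream of the GENCODE start. It had signal 2.68 and 1.5 (percentiles 83.3 and 87.8 of all peaks) and counted neither as promoter nor as distal peak. The GENCODE M21 model of Chrm4 begins at the coding exon, whereas the RefSeq mRNA begins 5060 bp further upstream, at 91922189. A peak overlapped that RefSeq start in both libraries, chr2:91921801-91922220 with signal 4.01 and chr2:91921761-91922220 with signal 1.32. At percentiles 60.8 and 55.4 of promoter peaks it ranked close to the peak of Drd1. It was not counted as distal because it lay 873 and 833 bp from the start of the pseudogene Gm10805. The peak with the RE1 core match lay directly upstream of it. Distal peaks numbered 3 and 6 at Chrm4, the second highest of its class.

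**Figure D3:**
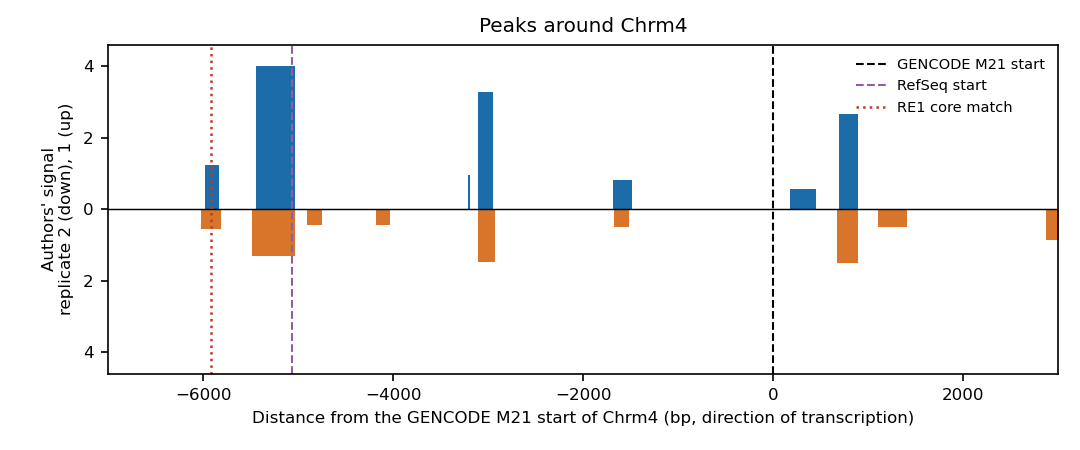
Peaks around Chrm4 by distance from its GENCODE M21 start in the direction of transcription (x axis, bp), with the authors' signal upward for replicate 1 (blue) and downward for replicate 2 (orange). The tallest peak of replicate 1 (4.01) lies at the RefSeq start 5060 bp upstream, and the peak with the RE1 core match (1.25 and 0.542) lies just beyond it. The tallest peak of replicate 2 (1.5) lies inside the gene, 672 bp downstream of the GENCODE start, where replicate 1 has 2.68.

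Among the nicotinic receptor genes, Chrna7 (chr7:63098692-63212569), which forms a fast calcium-permeable channel abundant in hippocampal interneurons, had the strongest promoter peak. Its signal was 5.62 and 1.52, at percentiles 69.4 and 58.8. Chrnb2 (chr3:89746195-89764632) had 1.96 and 0.986 (percentiles 42.5 and 48.5). Chrna4, the usual partner of the Chrnb2 subunit, had 1.38 and 0.496 (percentiles 31.6 and 23.9), but at different starts in the 2 libraries. Chrna5, an accessory subunit, had 0.821 and 0.398 (percentiles 17 and 15.5).

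Chrna3, a subunit typical of autonomic ganglia, had a promoter peak in replicate 1 only (signal 0.638, percentile 11.1). Chrnb4, its usual partner, and Chrna2 had none in either library. Chrna5, Chrna3 and Chrnb4 lie side by side on chromosome 9, and their windows shared 3 and 4 distal peaks, so these 3 genes are not independent. The strongest shared peak, chr9:55024021-55024220 in Chrna3, had signal 2.72 and 1.25 (percentiles 92.1 and 89.5). Distal peaks were most numerous at Chrna7 (4 and 10) and Chrna4 (4 and 4). At least 1 in both libraries was found at 7 of 7 nicotinic genes, beside 71.7% of all genes, and at 5 with the shorter lists. The only distal peak that Chrna5 had in both libraries lay in Chrna3, and that of Chrnb2 in an intron of Adar. Chrna7 is the longest of these genes, and per 100 kb it had 2.6 and 6.5, beside 6.14 and 6.14 at Chrna4.

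At least 1 distal peak was found at 31 of the 36 receptor genes in replicate 1, where 74.7% of all protein-coding genes had one. In replicate 2 it was found at 35 of the 36, where 82.8% of all genes had one. In both libraries it was found at 30 (83.3%), beside 71.7% of all genes. No receptor gene lacked one in both libraries. The median was 3 and 4 peaks per receptor gene, beside 2 and 3 over all genes, and 3.89 and 6.12 per 100 kb, beside 2.5 and 4.38. The distal peaks numbered 122 and 193 in all. Of these 86 (70.5%) and 87 (45.1%) overlapped a peak of the other library, beside 68.9% and 42.7% of all distal peaks. In strength they were ordinary, with a median percentile of 51.3 in each library.

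**Figure D4:**
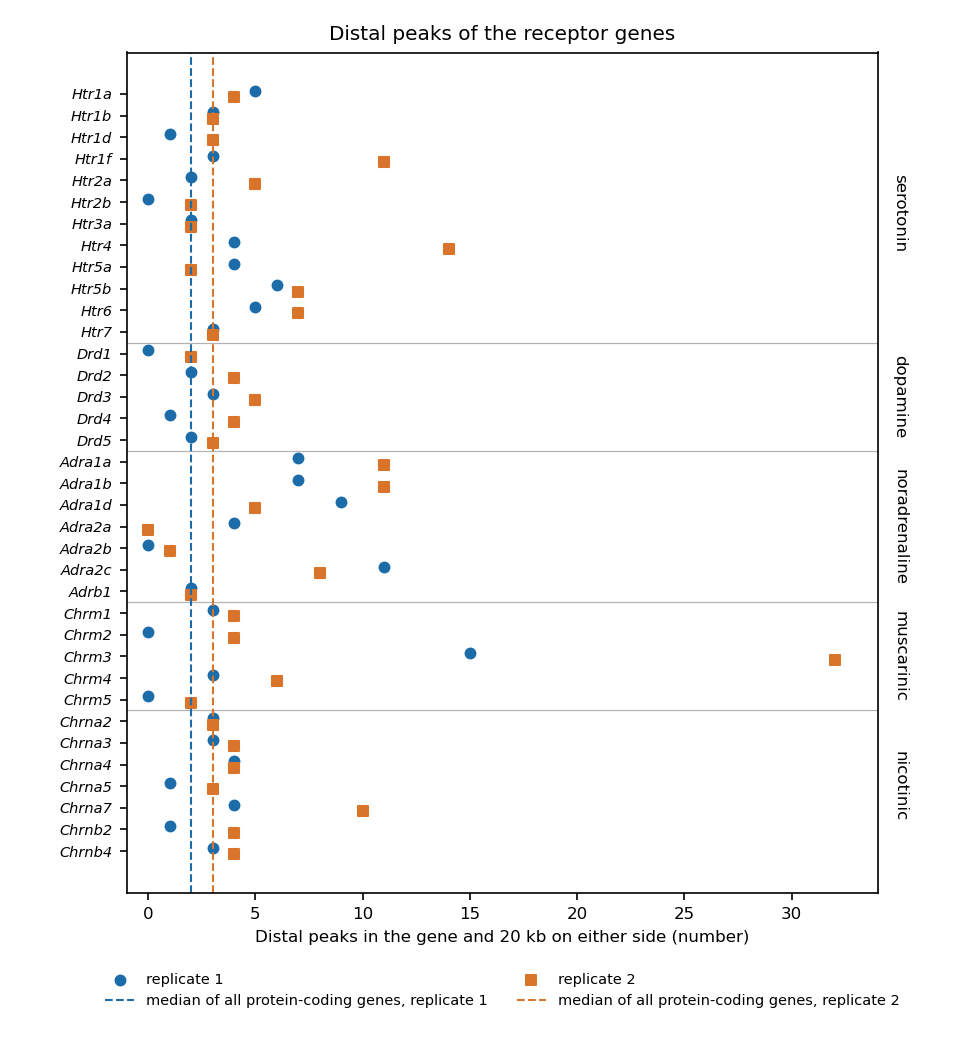
Number of distal peaks (x axis) in each of the 36 receptor genes and 20 kb on either side, in replicate 1 (circles) and replicate 2 (squares), with dashed lines at the medians of all protein-coding genes (2 and 3). Chrm3 stands apart at 15 and 32.

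A distal peak outranked the promoter in many receptor genes. Of the 22 with both kinds of peak in both libraries, 10 (45.5%) had a strongest distal peak of higher signal than the strongest promoter peak in both, beside 19.3% of all genes with both kinds (2162 of 11228). The 10 were Htr1a, Htr1b, Htr2a, Htr3a, Drd3, Adra1a, Adra1b, Adra2c, Chrna4 and Chrna5. Htr1a depended on the window edge. In replicate 1 its peak of signal 1.44, 542 bp from the start, was stronger than its strongest distal peak (0.821). The strongest distal peak of Chrna5 lay in an exon of Chrna3, 42468 bp from the Chrna5 start. At Adra1b the values in replicate 1 were close (3.39 and 3.34). The 10 genes came from 4 classes, and 0 of the 2 muscarinic genes with both kinds were among them. This measure moves with the weak promoter peaks described above and is not separate from them.

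**Figure D5:**
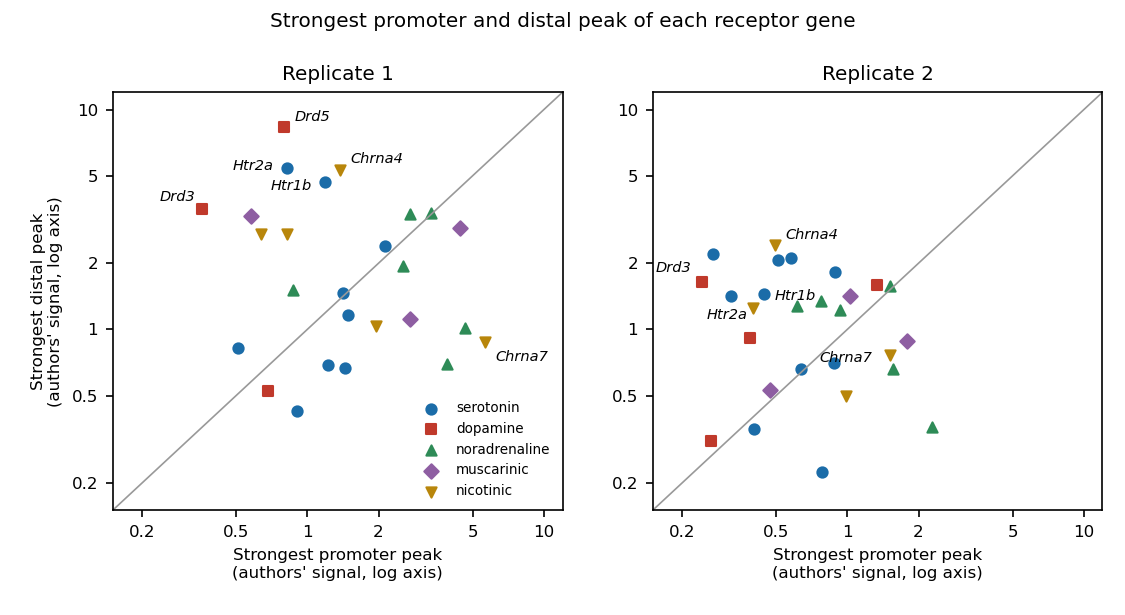
Signal of the strongest distal peak (y axis) against that of the strongest promoter peak (x axis) of each receptor gene with both kinds, on log axes, in replicate 1 (left) and replicate 2 (right), with colour and shape for the class and a line at equal signal. Drd3, Htr2a, Htr1b and Chrna4 lie above the line in both libraries and Chrna7 below it.

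The shares of receptor peaks with short motifs lay on either side of those of all peaks. The cyclic AMP response element TGACGTCA, the end point of signalling by several of these receptors, occurred in 0 of 56 and 0 of 42 receptor promoter peaks, beside 2.38% and 2.36% of all promoter peaks. The GC box GGGGCGGGG occurred in 4 of 56 (7.14%) and 5 of 42 (11.9%), beside 17.7% and 16.4%. The E-box CAGATG occurred in 37.7% and 41.5% of receptor distal peaks, beside 33.3% and 36.5%, and CAGCTG in 21.3% and 19.2%, beside 28.4% and 23.2%. The AP-1 site TGANTCA occurred in 10.7% and 10.9% of them, beside 9.92% and 12.1%. The longer CTCF consensus with up to 1 mismatch occurred in 5 of 122 (4.1%) and 7 of 193 (3.63%), beside 2.16% and 1.87%.

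Genes that act before and after the receptors were counted in the same way. A promoter peak was present in both libraries at all 21 genes for G proteins and effectors, with median percentiles 66.7 and 69.2, and at all 11 receptor chaperones and regulators (60.9 and 53.7). The strongest of these were Gna11, a G protein subunit coupled to phospholipase C (signal 23.5 and 8.45), Prkaca, a catalytic subunit of protein kinase A (18 and 7.91), and Arrb2, an arrestin that ends receptor signalling (16.4 and 6.27). The median CpG ratio at the starts was 0.87 for the G proteins and effectors and 0.75 for the chaperones and regulators, beside 0.59 for the receptors. In the highest CpG tertile the share of all genes was 96.1%, with median percentiles 79.8 and 78.7. These full counts therefore do not set the signalling genes apart from CpG-rich genes in general, and a contrast with the receptors was not tested. A promoter peak was also found in each library at the 5 breakdown genes, beside 61.9% of all protein-coding genes with one in both. Among 8 synthesis genes it was 4 (50%), and Tph1, Th, Pnmt and Chat had none in either. Among 9 transporter genes 8 had a promoter peak in replicate 1 and 4 in replicate 2, with 3 in both (33.3%). The 3 were Slc18a1, with signal 19.4 and 6.21 (percentiles 98.6 and 94), Slc29a4 (2.22 and 1.37) and Slc5a7 (0.486 and 0.144). Slc18a2, Slc18a3, Slc6a2, Slc6a3 and Slc22a3 had one in replicate 1 only, with signals 0.729, 0.38, 0.501, 0.927 and 0.57, and Slc6a4 in replicate 2 only, with 0.387. Of 17 other receptor genes of these families and of the histamine receptors, 7 had one in both libraries (41.2%). The remaining 10 had none in either, among them the muscle subunits Chrna1, Chrnd, Chrne and Chrng. The median CpG ratio of these 17 genes was 0.26, and in the lowest CpG tertile 10.8% of all genes had one in both libraries. The part of CpG content in this count was not tested.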

How the data were processed

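DNase-seq was analysed in 2 libraries of 1 group. Per the deposited file listings, the authors made every file per library, from filtered mm10 alignments. The aligner and the callers of peaks and footprints are, by name, not given in the sources used here. Deposited peak lists of the authors hold a signal value whose scale is not stated and no read depth, so no counting interval was given. The deposited FDR (q-value, a p-value scale) files list runs of bases under 0.05. At receptor starts their median share of bases was 50% and 22.4%, beside 37.2% and 30.3% for all genes. The deposited footprints all have the score 0.01, and only their positions were used.

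Starts and genes are from GENCODE M21, RefSeq starts from GRCm38.p6 (all 36 genes matched). Peaks counted as overlapping from 1 bp. Of the distal peaks, 0 of 122 and 2 of 193 overlapped another peak of their own list. Nearest to the edge of the 500 bp window lay peaks of Adra2c (489 bp, signal 0.773 in replicate 2) inside and of Adra1b (501 bp, signal 0.342 in replicate 1) outside. Scripts used Python 3.11.15, numpy 2.4.6, pandas 2.3.3 and matplotlib 3.10.9, and interval and motif code was tested on simulated data.

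The members and lists were chosen with earlier results of these data known. Values were given per class for the 3 highest promoter ranks (smaller percentile of the libraries) and the 2 highest distal counts (mean of the libraries, ties kept), every gene with a promoter peak in 1 library, and by name those with none. For pathway genes values were given for the strongest 3 or those with a promoter peak in 1 library, and for the transporters with one in both. Htr2a, Htr1b, Adra2b, Htr6 and the CTCF core were chosen after values were seen.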

Additional observations from a re-analysis of the deposited data

How the results depend on the processing

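Promoter peaks in both libraries were found at 27 receptor genes, a number that ranged from 18 (shorter peak list) to 28 (1000 bp window); measured from RefSeq starts, an alternative chosen after seeing the data, it was 26, with Chrm4 gained and Drd3 and Chrna4 lost. In single libraries it was 28 to 30. Under the shorter list the noradrenaline genes numbered 5 of 7 and the dopamine genes 1 of 5, and under a 250 bp window the noradrenaline genes numbered 4. The number with a distal peak in both libraries was 30 and ranged from 20 (gene body only) to 34 (gene plus 50 kb), and in single libraries from 31 to 35. The median number of distal peaks per gene, averaged over the libraries, was 3.5. It was 1.75 with the shorter list, 1.25 in the gene body only, 6.5 with 50 kb and 2.75 over 2 kb from any start, and 3 to 4 in single libraries. The median promoter percentile, averaged likewise, was 33.8. It was 27.9 with the shorter list, 23.5 with a 250 bp window and 44.4 with a 1000 bp window, 37.3 from RefSeq starts, and 29.7 to 37.8 in single libraries. With the shorter list, 2 in place of 4 genes had an RE1 core match in a peak of both libraries, and 3 in place of 5 of the lowest CpG tertile had a promoter peak in both (also added after seeing the data). In all, 25 of 34 alternatives stayed within 1.5 times the main count or within the spread of the libraries, and 9 did not. Medians in single libraries could not leave that spread, since the main value was the mean of the libraries. Counts at exactly 1.5 times, 18 beside 27 and 20 beside 30, were taken as within. The tally is therefore a lenient one. The read depth of the libraries is unknown, and a missing peak does not show closed chromatin. Replicate 2 had more peaks; with both lists at equal length 23 and 29 genes had a promoter and a distal peak in both. No paired analysis was possible because there is 1 group.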
